A study of Mus musculus with 2 samples.

Results

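The beta-globin locus of the mouse was examined for CTCF binding in embryonic stem cells (ESCs). The genes were chosen by name, with earlier results of these data known. They are Hbb-b2, Hbb-b1, Hbb-bh1 and Hbb-y, 4 of the 37273 genes that GENCODE M1 places on the assembled chromosomes of mm9. The locus was set by position alone as the stretch from Hbb-b2 to Hbb-y plus 150 kb on each side, chr7:110811038-111151754, 340.717 kb in length. It holds 7 Hbb genes in all, of which 5 are annotated as protein coding (Hbb-bh2 besides those chosen) and 2 as pseudogenes (Hbb-bh3 and Hbb-bh0), 21 olfactory receptor (Olfr) genes and 4 other annotated genes. All 7 Hbb genes lie on the minus strand. Positions are given below in kb from the start of Hbb-y, positive on its upstream side and negative on the side of the gene bodies, so that Hbb-b2 ends the cluster at the negative, 3′ side.

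The cells were R1/E ESCs, a mouse line of 129 origin, that carried CTCF with a C-terminal LAP tag, which contains GFP, on a stably integrated BAC. Resistant cells were sorted for GFP, and the cells also had their own untagged CTCF. In the ESC CTCF-GFP ChIP library, chromatin was precipitated with goat-anti-eGFP, and in the ESC CTCF-GFP IgG library with a Goat IgG isotype control, with 5 ug of antibody each according to the labels. There is 1 library of each, and the label of the control also calls it input DNA, so that its ratios would be ratios to input if that were the case. Undifferentiated ESCs are not erythroid cells, and neither RNA nor chromatin contacts were measured in these 2 libraries, so that the cell type could not be checked against its markers.

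Beta-globin is the partner of alpha-globin in haemoglobin. Hbb-y and Hbb-bh1 are the embryonic beta-like genes of the primitive red cell. Hbb-b1 and Hbb-b2 are the adult genes, which share much of their sequence with each other in mm9. In red cell precursors a locus control region upstream of Hbb-y acts on these genes over a distance, and the cluster lies inside a larger array of olfactory receptor genes, which are expressed in sensory neurons of the nose. CTCF is a zinc finger protein that binds a long, directional DNA motif, and sites on both sides of the globin cluster are known from erythroid cells.

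The authors' list places 2 CTCF peaks in the locus, 1 on each side of the globin genes, and none within the cluster. Both peaks lie between genes, and both hold a match to the CTCF matrix on the minus strand, the strand of the globin genes. The sequences below are 300 bases of mm9 around each summit, printed on the plus strand. The capitals mark the matrix match, which reads as its reverse complement on the plus strand.

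Peak 3′ of Hbb-b2, chr7:110955472-110955771, plus strand: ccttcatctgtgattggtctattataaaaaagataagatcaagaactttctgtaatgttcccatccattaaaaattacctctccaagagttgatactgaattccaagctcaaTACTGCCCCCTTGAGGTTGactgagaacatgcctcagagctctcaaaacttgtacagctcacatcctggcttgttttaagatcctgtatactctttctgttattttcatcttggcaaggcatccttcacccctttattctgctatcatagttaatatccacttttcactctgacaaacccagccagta
Peak upstream of Hbb-y, chr7:111091367-111091666, plus strand: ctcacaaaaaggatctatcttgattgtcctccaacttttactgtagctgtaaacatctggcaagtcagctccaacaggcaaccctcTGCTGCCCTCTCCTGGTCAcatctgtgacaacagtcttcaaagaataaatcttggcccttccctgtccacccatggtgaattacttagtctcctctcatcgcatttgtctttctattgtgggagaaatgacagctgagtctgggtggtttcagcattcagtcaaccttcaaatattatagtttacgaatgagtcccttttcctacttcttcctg

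The 19 bases of each match, read on the minus strand, can be set beside the consensus of the matrix, which was built from 192 CTCF sequences of the study's supplement.

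Matrix consensus: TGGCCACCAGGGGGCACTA
Peak 3′ of Hbb-b2: CAACCTCAAGGGGGCAGTA
Peak upstream of Hbb-y: TGACCAGGAGAGGGCAGCA

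The match at the 3′ peak scored 19.9 bits, which a position of random sequence of mouse base composition reaches with an exact p = 1.13e-07. It lies at chr7:110955584-110955602, with its centre 29 bp from the summit. The match at the upstream peak scored 21.7 bits (exact p = 2.21e-08) at chr7:111091453-111091471, with its centre 55 bp from the summit. Across the genome, 73.6% of all summits have a match within 150 bp at a motif p of 1e-05 (95% Wilson interval 73.1 to 74.1), so that a match at a summit is the usual case.

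The 3′ peak was chr7:110955270-110955931, with its summit 5416 bp past the end of Hbb-b2 and 46132 bp from the start of Hbb-y. In its 662 bp lay 16 CTCF tags and 0 IgG tags, a count of 0 that allows up to 3. A tag is 1 aligned read of 35 bases, and the ratio of CTCF to IgG tags, scaled to equal depth, has an exact 95% interval that begins at 3.67. The CTCF tags were 8 on the plus and 8 on the minus strand. Every 35-base window of this peak is found at 1 place of the genome. The authors' score, -10 times the log10 of the MACS p-value, was 77.2, and the pileup was 8 tags high. Of the 33756 peaks on the assembled chromosomes, 73.4% had a higher score and 87.0% a greater height.

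The upstream peak was chr7:111091081-111092037, with its summit 89763 bp from the start of Hbb-y, 4668 bp past Olfr632 and 3565 bp before Olfr633. In its 957 bp lay 24 CTCF and 4 IgG tags, a ratio of 5.71 (exact 95% interval 1.96 to 22.7). Within 150 bp of the summit there were 13 CTCF tags and 0 IgG tags, the same numbers as at the 3′ peak. Within 150 bp of the match there were 15 CTCF and 2 IgG tags, against 14 and 0 at the 3′ peak. Of the 35-base windows of the upstream peak, 89.8% are found at 1 place of the genome. Its score was 83.7 and its height 11 tags, with 69.0% of those peaks scoring higher and 59.1% standing higher. Both peaks therefore belong to the weaker part of the list, whose median score is 117 and whose median height is 13 tags. Neither reached a score of 100, so that none would be left at that threshold. No test is given at the peaks, since they were called on these same libraries.

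**Figure D1:**
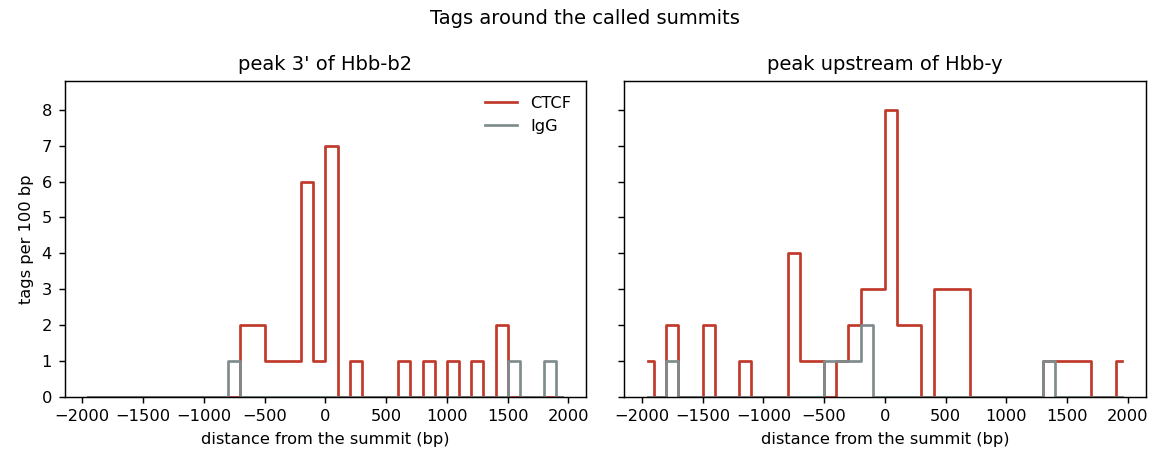
Tags per 100 bp (vertical axis) against the distance from the summit in bp (horizontal axis) for the peak 3′ of Hbb-b2 and the peak upstream of Hbb-y, with the CTCF library in red and the IgG library in grey. The CTCF tags gather at the summits, where the 3′ peak reaches 7 tags per 100 bp and the upstream peak 8, and the IgG library has at most 2 in any bin.

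The nearest peaks outside the locus were far away. On the side of Hbb-b2 the next summit was at chr7:110068332, between Olfr571 and Olfr572, which leaves a gap of 887.29 kb to the 3′ peak. Only 0.860% of the 33736 gaps between neighbouring peaks on the same chromosome were longer, and the median gap was 25.632 kb. On the side of Hbb-y the next summit was at chr7:111348498, between Olfr649 and Olfr650-ps1, 256.981 kb beyond the upstream peak (5.90% of gaps longer). This outer peak had a score of 236 and a height of 21 tags, and its match was TGGTCAGTAGGTGGCGCTA on the plus strand. The peak past Hbb-b2 had a score of 147, a height of 14 tags and no match at a motif p of 1e-05. The globin genes thus lay in a gap of 135.895 kb between the 2 peaks of the locus, and 12.7% of gaps were longer.

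At 2 peaks in 340.717 kb, the locus had 0.587 peaks per 100 kb (exact Poisson 95% interval 0.0711 to 2.12). The rest of the genome had 1.32 per 100 kb, which would give 4.50 peaks here. The density ratio of 0.445 had an exact interval of 0.0539 to 1.61, and the difference was not detectable with so few peaks (exact conditional binomial test, two-sided, p = 0.342, adjusted p = 0.342 over 2 tests). The alpha-globin locus, set in the same way from Hba-x to Hba-a2 plus 150 kb on each side (chr11:32026400-32347301), held 18 peaks, or 5.61 per 100 kb. The beta-globin locus had 0.105 times that density (0.0118 to 0.437, exact conditional binomial p = 0.000157, adjusted p = 0.000314). These intervals and tests treat peaks as independent of one another, and clustering of peaks along a chromosome was not modelled. The alpha-globin genes were chosen for comparison with earlier results of these data known. Its GC content was 38.2%, against 47.7% in the alpha-globin locus and 41.8% in the genome, and the part of base composition in this difference was not tested.

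The tags of the whole locus were nearly equal in both libraries, with 767 CTCF and 763 IgG tags and a ratio of 0.957 (exact 95% interval 0.865 to 1.06), or 1.07 (0.964 to 1.18) when scaled by the tags outside peaks. Without the tags in the peaks the ratio was 0.912 (0.823 to 1.01), close to the 0.952 (0.947 to 0.956) of chromosome 7 outside peaks. In the alpha-globin locus the ratio was 1.89 (1.75 to 2.03) from 2102 CTCF and 1060 IgG tags, and outside peaks it was still 1.43 (1.32 to 1.55). The odds of a tag being from the CTCF library were 0.507 times as high in the beta-globin as in the alpha-globin locus (0.447 to 0.575, Fisher's exact test, two-sided, p = 9.65e-27). The p-value covers counting error between 2 libraries and no variation between cultures.

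Within the cluster itself, from the end of Hbb-b2 to the start of Hbb-y (40.717 kb), there were 53 CTCF and 63 IgG tags, a ratio of 0.801 (0.545 to 1.17). No peak was called there, which allows up to 9.06 peaks per 100 kb. The flank past Hbb-b2 had 271 CTCF and 283 IgG tags (0.912, 0.769 to 1.08), and the flank past Hbb-y had 443 and 417 (1.01, 0.883 to 1.16). These intervals overlap, and a difference between the cluster and its flanks was not tested. Both libraries were thin over the cluster, with 1.30 CTCF and 1.55 IgG tags per kb against 3.27 and 3.11 in the genome.

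**Figure D2:**
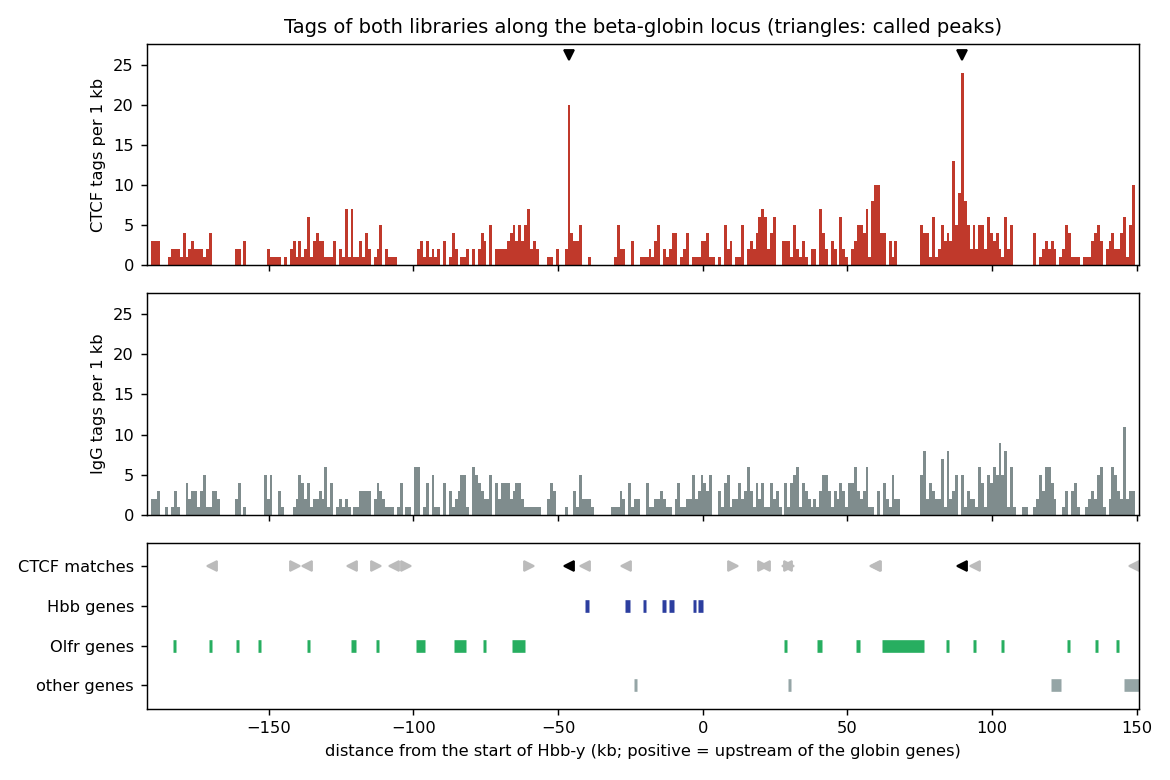
CTCF tags (red) and IgG tags (grey) per 1 kb across the beta-globin locus, with the CTCF matrix matches, the Hbb genes, the Olfr genes and the other genes below, against the distance from the start of Hbb-y in kb. Arrowheads point along the strand of each match, black for matches in peaks, and the bins with the most CTCF tags are those of the 2 peaks (20 and 24 tags).

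Over the globin genes the tags were few. Hbb-b2 (ENSMUSG00000073940.3, chr7:110961038-110962510) had 0 CTCF and 2 IgG tags over its body. Hbb-b1 (ENSMUSG00000052305.5, chr7:110975048-110976610) also had 0 CTCF and 2 IgG tags. For each of these adult genes the count of 0 allows up to 3 CTCF tags.

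The embryonic genes were covered a little more. Hbb-bh1 (ENSMUSG00000052217.4, chr7:110990150-110991678) had 4 CTCF tags and 1 IgG tag, and Hbb-y (ENSMUSG00000052187.3, chr7:111000259-111001754) had 3 CTCF and 5 IgG tags. No body of these 4 genes reached the 10 tags of both libraries together that were asked for a test, so 0 of 4 were tested. Of the 22857 gene bodies tested in the genome, 30.2% were called higher in the CTCF library at an adjusted p of 0.05 (exact binomial test, two-sided, Benjamini-Hochberg adjustment over all genes tested). Among the other Hbb genes, the pseudogene Hbb-bh3 had 1 CTCF tag and 0 IgG tags, Hbb-bh2 had 1 and 2, and Hbb-bh0, a pseudogene of 129 bp, had 0 and 1.

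Within 1 kb of the gene starts, Hbb-b2 had 1 CTCF and 2 IgG tags and Hbb-b1 had 0 and 5. Hbb-bh1 had 8 CTCF and 2 IgG tags, a ratio of 3.81 (exact 95% interval 0.760 to 36.8, exact binomial p = 0.110, adjusted p = 0.360). Hbb-y had 5 CTCF and 11 IgG tags, a ratio of 0.433 (0.118 to 1.35, exact binomial p = 0.135, adjusted p = 0.411). Hbb-bh1 was thus the only gene of the 4 with more CTCF than IgG tags at its start, and neither it nor Hbb-y passed the test. Of the 4 starts 2 were tested and 0 called, at a background of 13.1% of 24081 gene starts called higher in the CTCF library. No Hbb gene of the locus had a peak within 1 kb, and 29.9% of all genes did. Peaks were counted over the gene body plus 1 kb on each side, so this share depends on gene length, which was not matched.

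The adult genes differ from the embryonic genes in how much of their sequence a 35-base tag can be placed in. Only 26.2% of the 35-base windows of Hbb-b2 and 30.5% of those of Hbb-b1 are found at 1 place of the genome, whereas all windows of Hbb-bh1 and Hbb-y are. Of Hbb-b1, 1062 of the 1529 windows (69.5%) also occur in Hbb-b2, where they are 73.8% of 1439, and none of them occurs in Hbb-bh1 or Hbb-y. In the locus 3 of 766 CTCF and 4 of 763 IgG tags start at a window that is not unique. At the genome's tag density, the unique windows of Hbb-b2 would hold 1.46 CTCF tags and those of Hbb-b1 1.80, so that 0 tags there is not distinguishable from the average. For Hbb-bh1 the same density gives 5.78 tags where 4 were found, and for Hbb-y 5.65 where 3 were found. Over the whole cluster, 77.3% of windows are unique (84.7% in a sample of the genome), and the tags reached 43.7% of that expectation in the CTCF library and 54.5% in the IgG library. The genome sequence used is of C57BL/6J, in which the adult genes are also known as Hbb-bs and Hbb-bt, while R1/E cells are of 129 origin, and the part of strain differences in these low counts was not tested.

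**Figure D3:**
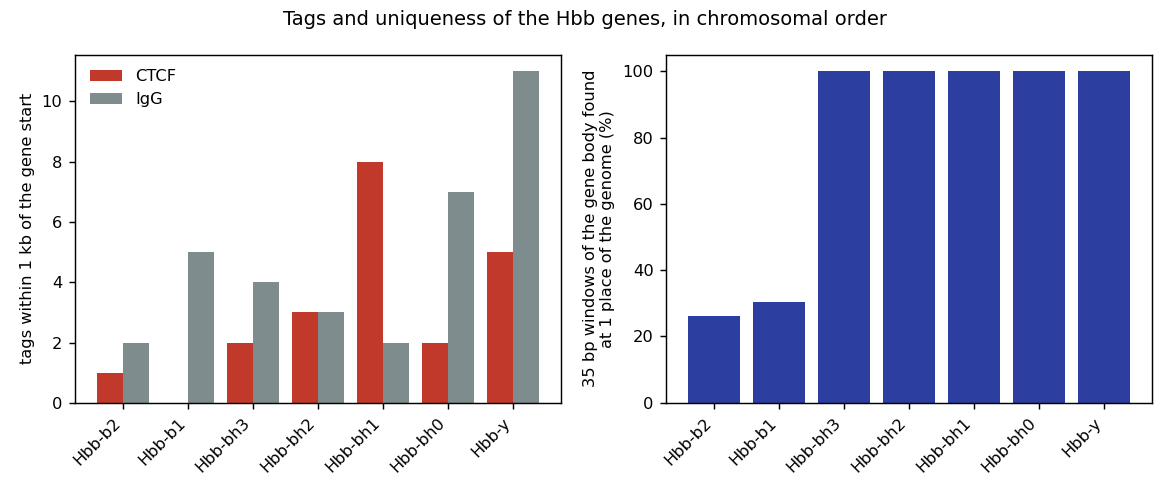
Tags within 1 kb of the start of each Hbb gene (left, CTCF in red and IgG in grey) and the percent of 35-base windows of the gene body that are found at 1 place of the genome (right), for the genes in chromosomal order. Hbb-bh1 has 8 CTCF against 2 IgG tags and Hbb-y 5 against 11, and only Hbb-b2 and Hbb-b1 are below 100% unique.

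Along the locus, 35 windows of 10 kb held between 1 and 67 CTCF tags with a median of 20, and between 7 and 50 IgG tags with a median of 22. Of these, 34 had enough tags for a test and 2 were called higher in the CTCF library, against a background of 9.8% of 247625 windows. The number called lower was 0, and the share of all 10 kb windows called lower was not counted. The higher windows were those with the peaks, so that they restate the peak calls. The window of the 3′ peak had 39 CTCF and 12 IgG tags (ratio 3.09, 1.59 to 6.49, exact binomial, adjusted p = 0.00480), and that of the upstream peak 67 and 25 (2.55, 1.59 to 4.22, adjusted p = 0.000691). The 10 kb window that holds Hbb-b2 had 1 CTCF tag and 8 IgG tags and was not tested. Only 35.1% of the 35-base windows in it are found at 1 place of the genome.

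Another place had more CTCF than IgG tags without a peak. The 10 kb window centred at 63.2 kb, upstream of Hbb-y, had 43 CTCF and 20 IgG tags, a ratio of 2.05 (1.18 to 3.67, exact binomial p = 0.00775), and missed the threshold with an adjusted p of 0.0517. In 5 kb windows, an alternative setting, the one at chr7:111060001-111065000 had 36 CTCF and 8 IgG tags and passed (exact binomial, adjusted p = 0.000898). Of 59 windows of the locus tested at 5 kb, 3 were called higher in all, and the others called held the peaks. The background was 6.28% of 470402 windows of 5 kb, so this count was not above it. The window at chr7:111060001-111065000 spans the start of Olfr631, and it holds 2 matches of the CTCF matrix outside peaks. In 20 kb windows, 18 were tested and again the 2 windows with the peaks were called higher, at a background of 14.2%. Another 2 were called lower by the exact binomial test, centred at -91.8 kb (27 CTCF and 48 IgG tags, adjusted p = 0.0398) and at 108 kb (39 and 63, adjusted p = 0.0374), at a background of 14.9% called lower.

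**Figure D4:**
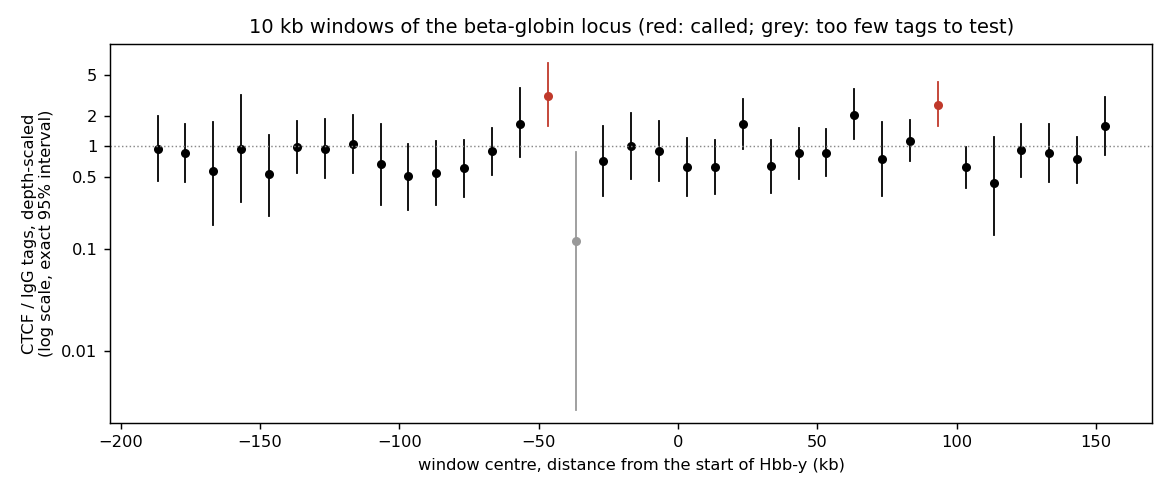
Ratio of CTCF to IgG tags, scaled to equal depth (log axis), in the 35 windows of 10 kb against the distance of the window centre from the start of Hbb-y in kb, with exact 95% intervals as bars. The windows of the 2 peaks are in red at 3.09 and 2.55, and the window at 63.2 kb stands at 2.05. The grey window, which holds Hbb-b2, had too few tags to be tested, and 35.1% of its 35-base windows are unique.

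The CTCF matrix matched 21 places of the locus at a motif p of 1e-05, 7 on the plus and 14 on the minus strand, which is 6.16 per 100 kb against 10.1 in the genome. Of these, 2 lie in peaks (9.52%), against 12.5% of the genome's 258105 matches. At the 19 matches outside peaks, 35 CTCF and 13 IgG tags lay within 150 bp, a ratio of 2.56 (exact 95% interval 1.32 to 5.28), and the matches outside peaks over the whole genome had 2.04 (2.03 to 2.05). At the stricter motif p of 1e-06, the 5 matches outside peaks had 18 CTCF and 2 IgG tags, a ratio of 8.57 (2.05 to 76.1), against 3.69 (3.65 to 3.73) in the genome. The intervals of the locus include the genome's ratios, so the matches of the locus did not differ from other uncalled matches beyond counting error.

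Of the 19 matches outside peaks, the pair with the most CTCF tags is printed here on its own strand. It was chosen after these counts were seen, and 1 of the matches lies on each side of the globin genes.

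Match at -60.1 kb, chr7:110941605-110941623, plus strand: ATACCAGTAGGGGGCAGAA
Match at 59.9 kb, chr7:111061690-111061708, minus strand: TAGCCACCAGGGGGAAGGG

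The match at -60.1 kb (exact p = 1.09e-07) had 6 CTCF tags and 0 IgG tags within 150 bp, and so did the match at 59.9 kb (exact p = 2.47e-07). All 35-base windows around both are unique. A weaker match at 59.5 kb (TGAACTCCAGAGGGGGGTG, minus strand) had 3 CTCF tags and 0 IgG tags, and one at 149 kb (AGTCCACAAGGAGTCGCTC, minus strand), in an intron of 4930516K23Rik, had 5 CTCF tags and 1 IgG tag. Windows of 300 bp with 6 CTCF tags but no match also occurred in the locus, at 86.5 kb (1 IgG tag), at 20.2 kb (3 IgG tags), at 149 kb beside the last match (2 IgG tags) and at 59.8 kb beside the match at 59.9 kb (0 IgG tags). Across the genome, 11.4% of the matches outside peaks at a motif p of 1e-06 had 6 or more CTCF tags. A match as strong as these, TAGCCACTAGAGGGTGCCA on the plus strand at -141 kb (exact p = 6.74e-08), had 1 CTCF tag and 0 IgG tags.

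Within the cluster there were 2 matches, and they are the same letters in the coding sequence of both adult genes.

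Hbb-b2, chr7:110961206-110961224, minus strand: CTTCCAGAAGGTGGTGGCT
Hbb-b1, chr7:110975215-110975233, minus strand: CTTCCAGAAGGTGGTGGCT

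The match of Hbb-b2 had 0 CTCF and 2 IgG tags within 150 bp and that of Hbb-b1 had 0 and 0, in windows of which 62.9% are unique. A pair of Olfr genes past Hbb-b2 also shared a match, AGGCCTGAAGATGGTGCTG, in coding sequence. It had 3 CTCF and 2 IgG tags in Olfr243 and 2 CTCF and 0 IgG tags in Olfr628, where only 22.1% of the windows around it are unique.

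**Figure D5:**
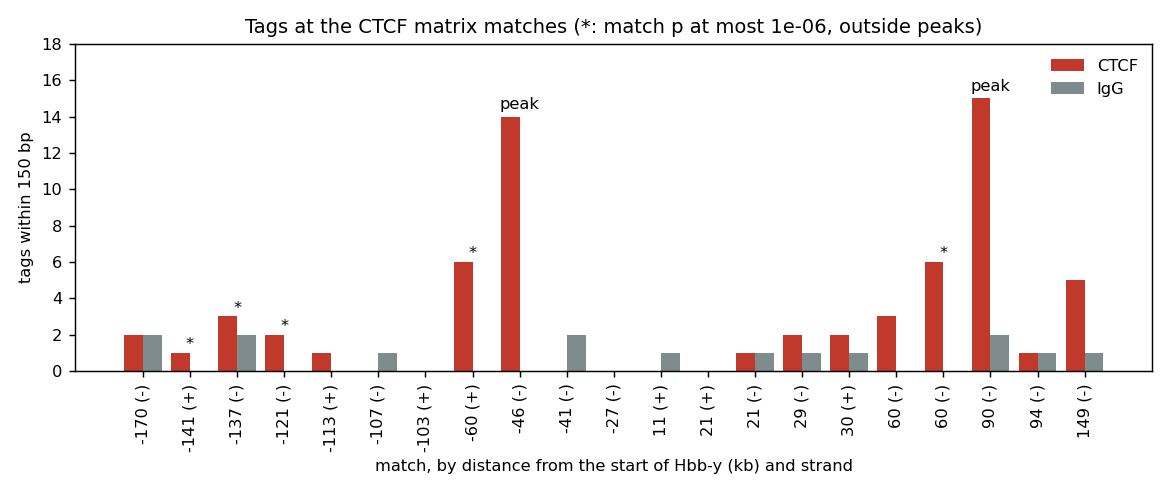
Tags within 150 bp of each of the 21 CTCF matrix matches of the locus (CTCF in red, IgG in grey), ordered by the distance from the start of Hbb-y in kb, with the strand in brackets. The matches in the 2 peaks have 14 and 15 CTCF tags, the next highest are the matches at -60.1 and 59.9 kb with 6 each, and the 2 matches in the adult globin genes have none.

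The olfactory receptor genes around the cluster carried no peak within 1 kb, 0 of 21, and among all Olfr genes of the genome 18 of 1251 (1.44%) did, against 29.9% of all genes. Gene length was not matched here either, and a longer gene has more room for a peak. Within 1 kb of their starts, the 21 genes had 130 CTCF and 113 IgG tags, a ratio of 1.10 (0.845 to 1.42), with 0 to 11 CTCF tags and 0 to 14 IgG tags per gene. Of 15 starts tested 0 were called in either direction by the exact binomial test with Benjamini-Hochberg adjustment, beside 13.1% of all gene starts called higher and 125 of 24081 called lower, and 11 higher and 17 lower among the 954 Olfr starts tested in the genome. Of the 15, 1 had an unadjusted p under 0.05. This was Olfr634-ps1, with 4 CTCF and 14 IgG tags (exact binomial p = 0.0169, adjusted p = 0.0997). Within 2 kb of the starts, 20 were tested and 2 were called higher, against a background of 14.7% of gene starts. Olfr67, the receptor gene nearest to Hbb-b2, had 20 CTCF and 5 IgG tags (ratio 3.81, 1.39 to 13.0, exact binomial, adjusted p = 0.0315), and its start lies 1270 bp from the match at -60.1 kb. Olfr631 had 24 CTCF and 8 IgG tags (ratio 2.86, 1.24 to 7.35, exact binomial, adjusted p = 0.0486), and its start lies 1877 bp from the match at 59.9 kb.

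A list of 14 genes of erythroid cells was examined beside the locus, made of the alpha-globin genes and of transcription factors and cofactors that act on globin genes, and 13 were found in the annotation. Of these, 8 had a peak within 1 kb of the gene, beside 29.9% of all genes. Peaks over the gene body count as well, and the listed genes range from 813 bp (Hba-a2) to 567401 bp (Sox6). The part of gene length in this count was not tested. Pooled over the gene starts of the list, the ratio was 1.51 (1.08 to 2.14), and over all gene starts it was 1.51 (1.50 to 1.52). Of the starts of the list, 5 were tested and 0 called, beside 13.1% of all gene starts called higher. The lowest p was that of Klf1, an activator of the adult beta-globin gene, with 19 CTCF and 7 IgG tags (exact binomial p = 0.0302, adjusted p = 0.153). Over gene bodies 11 were tested and 4 were called higher (Klf1, Ldb1, Nfe2 and Zfpm1), near the 30.2% of all bodies called higher. Sox6, a repressor of embryonic globin, was the 1 called lower. The share of all bodies called lower was not counted, so this call cannot be set against its background. Among all 20 kb windows tested, 14.9% were called lower. Ldb1, which bridges distant enhancers and promoters in red cells, had 77 CTCF and 32 IgG tags over its body (ratio 2.29, 1.50 to 3.58, exact binomial, adjusted p = 0.000241). Sox6, a gene of 567401 bp, had 1643 CTCF and 2190 IgG tags (ratio 0.714, 0.670 to 0.762, exact binomial, adjusted p = 3.65e-23). Each of these values compares 1 CTCF with 1 IgG library.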

How the data were processed

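Per the labels, the 35-base tags of both libraries were aligned to mm9 and the authors deposited them unnormalized, as a count of 1 per line, with no position and strand repeated (aligner not given in the sources used here). The authors called CTCF peaks with MACS 1.4 against the IgG library and deposited the score of each. The authors also deposited the signal at each summit, the pileup height in tags. The libraries hold 8391191 CTCF and 7988889 IgG tags. Each tag was shifted by 93 bp toward its fragment's centre (fragments of 186 bp, estimated at the 1000 peaks of highest score). Tests were two-sided exact binomial tests at the depth share, on features with at least 10 tags, Benjamini-Hochberg adjusted over all genes or windows. They were run on simulated counts drawn from the same binomial model, which hold no variation beyond counting. The tests compare 2 libraries, not conditions. Intervals, and the floor of 3 for a count of 0, cover counting error only. The matrix had a pseudocount of 1 and background frequencies of 0.29 (A, T) and 0.21 (C, G). Genes, sequence and uniqueness came from NCBI m37 and GENCODE M1, and RefSeq served for names only. Named genes were the globin genes, the erythroid list, and Olfr genes that were called, had the lowest p or neighbour a peak or match. The members and lists were chosen with earlier results of these data known. Alternatives varied scaling, flanks, windows, and score and motif thresholds. Software was scipy 1.17.1 and numpy 2.4.6 in Python 3.11.15, with pysam 0.24.0, numba 0.67.0, pandas 2.3.3 and matplotlib 3.10.9 for sequences, scanning, tables and plots. RAD21 and expression data were not analysed here.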

Additional observations from a re-analysis of the deposited data

How the results depend on the processing

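Of 26 alternatives to 10 results, 6 moved a value beyond its error or a count by over 1.5 times and 20 did not. Among the 20 the calls of windows still changed, with 34 windows tested at 10 kb, 59 at 5 kb and 18 at 20 kb. The 5 kb windows gave 3 higher calls in place of 2, and 20 kb windows gave 2 higher and 2 lower in place of 2 and 0. The ratio of the locus was 1.07 when scaled by tags outside peaks (7431023 CTCF and 7884274 IgG) and 0.849 with 250 kb flanks, in place of 0.957. At a minimum score of 100, 0 peaks were left in place of 2, and the lower density than at the alpha-globin locus kept its call (exact conditional binomial p = 0.000349). Both density ratios were then 0, outside their main intervals, and counted as unmoved because neither call changed. Within 2 kb of their starts, 2 Olfr genes were called in place of 0. With a match within 50 bp of the summit, 1 peak in place of 2 had a match on the minus strand, and at a motif p of 1e-06 the ratio at matches outside peaks was 8.57 in place of 2.56. Keeping 1 tag per position changed nothing, as no position repeats. No globin gene was called at its start or over its body under any alternative run, and between 0 and 4 of them had enough tags for a test, so depth limits these counts. No paired analysis was possible because neither antibody has a replicate, and for the same reason no library could be left out.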
